A study of Mus musculus with 235 samples.

Results

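The 8 genes described here encode intermediate filament proteins: Synm (synemin), Gfap, Vim (vimentin), the neurofilament subunits Nefl, Nefm and Nefh, Ina (alpha-internexin) and Lmna (lamin A/C). They are 8 of the 27998 genes in the count table and were taken by symbol. The set was chosen by the regional responses of Synm to dexamethasone measured in these libraries, so the Synm values below are given as a description without a test, and tests are given for the other 7 genes only.

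Intermediate filaments are the rope-like part of the cytoskeleton, built from proteins with a common rod domain that pair and bundle without any motor or polarity. Astrocytes build theirs from Gfap and vimentin, neurons from the neurofilament subunits and alpha-internexin, and nearly all cells line the nucleus with lamins. Synemin does not form filaments by itself: it joins filaments made of vimentin and related proteins, and its long tail binds proteins that anchor filaments to the cell border.

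The animals were adult male C57Bl/6 mice aged 3 months. Dexamethasone, a synthetic glucocorticoid, was injected into the peritoneum of 15 of the 30 mice at 10 mg/kg, the other 15 got saline (vehicle) the same way, and tissue was taken after 4 h. From 8 places tissue was punched out of coronal sections of each perfused brain, with the labels PFC, AMY, PVN, CER, dCA1, vCA1, dDG and vDG, and each punch gave a library of messenger RNA 3′ ends with molecular identifiers. The 235 libraries comprised 13 to 15 mice per region and arm, all of them separate animals. The labels give no genetic change for either arm.

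Total counts per library ran from 268538 to 1451422 with a median of 742957, and RNA integrity numbers (a score of RNA degradation on a scale where higher is more intact) from 2.2 to 9.0. Punches hold mixed tissue. The summed level of 8 oligodendrocyte markers had a vehicle median between 2153 CPM in PFC (counts scaled to a normalised library total of 1000000) and 14369 CPM in CER. The summed level of 5 markers of dentate granule cells was not lower in dCA1 (vehicle median 540.1 CPM) than in dDG (429.5 CPM), and 1.89% of genes differed between these regions in vehicle animals, so the label dCA1 is used here as the name of a punch. In bulk tissue, fewer cells of a type and less RNA per cell cannot be told apart.

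Synm lies on the minus strand of chromosome 7 (mm10, chr7:67730160-67759742) and Gfap on the minus strand of chromosome 11 (chr11:102887336-102900912). The 250 bases upstream of the start site that RefSeq gives for each (build GRCm38.p6) are shown because Synm was higher after dexamethasone in the data below while Gfap, the main astrocyte filament gene, was not called in any region. Each runs 5′ to 3′ on the gene's own strand, and capitals mark the E-box CACGTG and the CCAAT box (CCAAT or its reverse ATTGG), the only such letters in either stretch. The Synm stretch is chr7:67759743-67759992, which also lies within an exon of the opposite-strand gene Gm45102, and the Gfap stretch is chr11:102897201-102897450, inside the annotated span of Gfap but in none of its GENCODE M21 exons.
Synm: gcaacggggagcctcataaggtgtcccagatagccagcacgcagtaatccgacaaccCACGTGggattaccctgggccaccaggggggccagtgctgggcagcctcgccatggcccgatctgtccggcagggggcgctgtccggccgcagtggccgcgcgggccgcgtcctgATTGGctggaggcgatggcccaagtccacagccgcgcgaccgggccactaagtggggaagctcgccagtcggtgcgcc
Gfap: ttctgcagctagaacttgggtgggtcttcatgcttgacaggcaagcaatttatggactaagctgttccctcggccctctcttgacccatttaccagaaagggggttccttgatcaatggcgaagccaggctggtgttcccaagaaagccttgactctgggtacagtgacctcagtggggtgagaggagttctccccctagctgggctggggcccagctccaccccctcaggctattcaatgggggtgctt

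RefSeq windows of 300 bases, from 250 before to 50 after the start site, were matched for 5 of the 8 genes (6 windows, with 2 for Lmna). The full glucocorticoid response element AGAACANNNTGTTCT, searched on both strands, was in none of the 6 windows and in 0.00913% of the 32851 windows of all genes. Its core ACANNNTGT was in none of the 6 and in 6.85% of all windows. The half-site AGAACA, which the full element contains, was in 1 of the Lmna windows and in 19.0% of all. The Synm window held the E-box CACGTG at position -193, found in 7.15% of all windows, and the CCAAT box as ATTGG at -78, found in 37.4%. These matches describe the letters of short windows and say nothing about binding of the receptor there or elsewhere.

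Synm was higher after dexamethasone in all 8 regions, and the size of the difference depended on the region. The estimated ratio to vehicle was 3.71 in CER and 3.66 in AMY, 2.40 in PVN and 2.26 in vDG, and between 1.73 and 1.97 in PFC, dDG, dCA1 and vCA1. In CER, Synm ran from 64.4 CPM through a median of 90.6 CPM to 122.4 CPM in vehicle animals and from 268.0 through 344.0 to 449.7 CPM after dexamethasone. In AMY it ran from 33.7 through 56.6 to 82.3 CPM and from 119.7 through 219.5 to 306.8 CPM. The lowest dexamethasone library lay above the highest vehicle library in both regions, a separation in the higher direction that 0.576% of genes tested showed in CER and 0.348% in AMY.

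In PVN, Synm ran from 32.3 through 59.1 to 82.8 CPM in vehicle animals and from 92.2 through 154.4 to 198.3 CPM after dexamethasone. In PFC the vehicle libraries lay between 44.1 and 67.9 CPM (median 56.4 CPM) and the dexamethasone libraries between 73.9 and 196.0 CPM (median 105.0 CPM). In dCA1 the ranges were 46.1 to 78.1 CPM (median 63.0 CPM) and 85.2 to 161.0 CPM (median 102.9 CPM). The arms did not overlap in these 3 regions either, where 0.367% (PVN), 0.315% (PFC) and 0.172% (dCA1) of genes were separated in that direction.

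The arms overlapped in the other 3 regions. In vCA1, Synm lay between 53.8 and 115.9 CPM (median 81.1 CPM) in vehicle animals and between 107.5 and 215.6 CPM (median 134.9 CPM) after dexamethasone. In dDG the ranges were 42.3 to 99.5 CPM (median 68.4 CPM) and 89.9 to 188.4 CPM (median 124.2 CPM). In vDG they were 35.8 to 116.7 CPM (median 58.9 CPM) and 90.8 to 263.5 CPM (median 140.8 CPM). Even so, 13 of 15 dexamethasone libraries in vCA1, 12 of 15 in dDG and 11 of 15 in vDG lay above the highest vehicle library of the region.

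**Figure D1:**
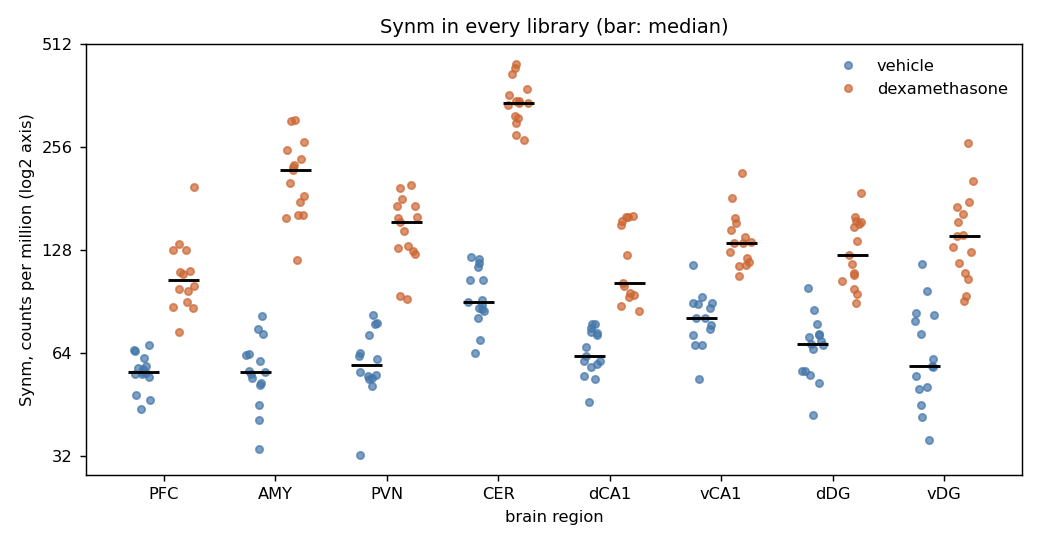
Synm level in CPM (vertical log2 axis) in every library of the 8 regions, vehicle and dexamethasone side by side, with a bar at each median. The dexamethasone libraries of CER (268.0 to 449.7 CPM) and AMY (119.7 to 306.8 CPM) stand farthest above their vehicle libraries.

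On the log2 scale, with edgeR estimates and their standard errors, the Synm differences were 1.89 ± 0.09 in CER, 1.87 ± 0.12 in AMY, 1.27 ± 0.11 in PVN and 1.18 ± 0.15 in vDG. They were 0.98 ± 0.10 in PFC, 0.94 ± 0.11 in dDG, 0.89 ± 0.12 in dCA1 and 0.79 ± 0.10 in vCA1 (n = 13 to 15 mice per arm). Among all genes ordered from the most increased, Synm was at place 14 among the 8611 genes tested in AMY, at place 20 among 9035 in CER and at place 113 among 9126 in vCA1. Synm was higher after dexamethasone in each of 32 combinations of region and library plate, by 0.38 to 1.98. The same held in each of the 32 combinations of region and punching date with at least 2 libraries of each arm. Combinations with fewer were not compared.

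The Synm level in vehicle animals varied less between regions than its response did. It was 95.4 ± 18.0 CPM (SD, n = 15) in CER and 81.6 ± 14.8 CPM (SD, n = 14) in vCA1, followed by dDG, vDG, dCA1, PVN, AMY and PFC, the last at 56.9 ± 6.77 CPM (SD, n = 15). No step between neighbours in this order exceeded the pooled SD of the libraries. AMY and PFC were neighbours at the lower end, yet the dexamethasone mean was 213.6 CPM in AMY and 110.9 CPM in PFC. Over the 8 regions, the Pearson r between the vehicle level and the log2 difference was 0.18.

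The Synm level was correlated with the summed genes of oligodendrocytes, the cells that make myelin. Across the 117 dexamethasone libraries, after the mean of each region and arm was removed, log2 Synm and the log2 summed level of 8 oligodendrocyte markers (among them Mbp, Mog, Mag and Olig2) had a Pearson r of 0.77 and a Spearman rho of 0.74. Across the 118 vehicle libraries r was 0.38 and rho 0.33. Leaving out the 2 libraries with the most extreme marker sums gave r of 0.74 and 0.40. Of the other 7 genes, Nefh had the highest r with the same sum, 0.51 in vehicle and 0.39 in dexamethasone libraries, and Gfap had 0.34 and 0.25. The fitted slope was 0.45 log2 units of Synm per log2 unit of the marker sum after dexamethasone and 0.21 after vehicle. These are descriptions: libraries of the same mouse are not independent, all values of a library share its normalisation, and the difference between the arms was not tested.

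Within regions, r between Synm and the oligodendrocyte markers was positive in 8 of 8 regions after dexamethasone, from 0.50 in PFC to 0.93 in AMY. In vehicle animals it was positive in 6 of 8 regions and ran from -0.51 in PFC to 0.75 in vDG. In the dexamethasone libraries, Synm had an r of 0.40 with the summed mural cell markers, 0.38 with microglia, 0.33 with endothelium and 0.28 with astrocytes. With neurons r was -0.19, with the dentate granule cell markers -0.37, and with the remaining lists between -0.12 and 0.01. Among the 8 oligodendrocyte genes r was lowest for Mog, which encodes a glycoprotein of the myelin surface, at 0.56. RNA integrity had an r of -0.17 with the marker sum and -0.21 with Synm in the dexamethasone libraries, and log2 total counts had r of -0.14 and -0.11.

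The regions with the most oligodendrocyte transcript, CER and AMY, also had the largest Synm differences. The median summed level of the 8 markers in vehicle animals was 14369 CPM in CER and 9523 CPM in AMY, against 2153 to 5630 CPM in the other 6 regions. Over the 8 regions the log2 of this level had an r of 0.85 with the log2 difference of Synm, while r was 0.74 for endothelial markers, -0.32 for astrocyte markers and -0.46 for neuronal markers. Among the other lists r over the 8 regions ran from -0.56 (fibroblasts and meninges) to 0.32 (mural cells). Over the 6 regions other than CER and AMY, r was 0.38 for oligodendrocyte and for endothelial markers, -0.86 for astrocyte and -0.88 for microglial markers, so the relation with oligodendrocyte markers rests on CER and AMY, and PFC, with the lowest marker level, had a larger difference than dDG, dCA1 and vCA1. Of 64 tests of the 8 markers for dexamethasone, 1 was past the adjusted p of 0.05 in the higher direction (Olig2 in CER, 0.47) and 1 in the lower (Mog in AMY, -0.58). This share of 3.1% lay near the 3.7% to 6.18% of all genes called per region, and the estimates ran from -0.68 to 0.47. With the oligodendrocyte level as a covariate, an analysis added after the data were seen, the Synm differences were 0.86 in vCA1, 0.89 in dCA1, 0.97 in PFC, 1.00 in dDG, 1.24 in vDG, 1.31 in PVN, 1.85 in CER and 1.92 in AMY. The part of oligodendrocytes in the regional differences was not tested.

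**Figure D2:**
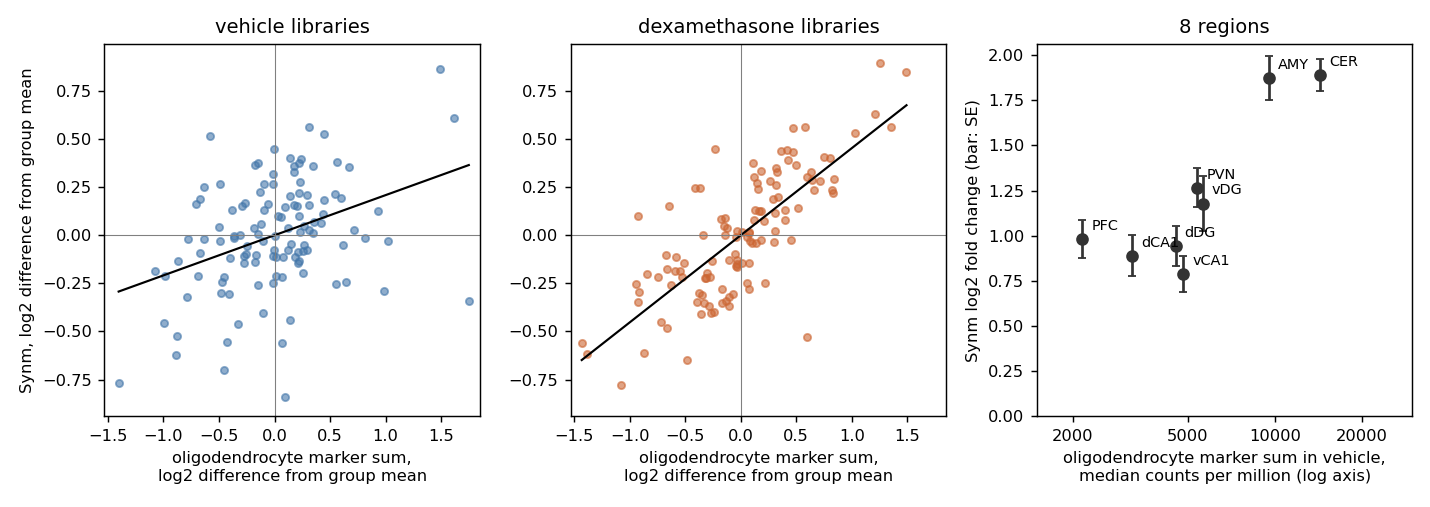
Left and middle: log2 Synm against the log2 summed level of 8 oligodendrocyte markers in each library, both as differences from the mean of the region and arm, with the fitted line (118 vehicle libraries, r = 0.38, and 117 dexamethasone libraries, r = 0.77). Right: Synm log2 difference with its SE against the median marker sum of vehicle animals (log axis) in the 8 regions, where CER and AMY stand apart at the upper right.

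By the measures of likeness used, the genes closest to Synm over all 235 libraries, after removing region and arm means, included Anln (r = 0.58), Trf (0.57), Lpar1 (0.56) and Mobp (0.56), out of 7923 genes tested in every region. Mobp encodes a myelin protein and Trf encodes transferrin, the iron carrier that oligodendrocytes make in quantity. None of these 4 genes was past the threshold in any region. Over the 8 regional differences, the closest patterns included those of Sufu (r = 0.97), Heg1, Peg3 and Mettl7a1 (each 0.96). Of these, Mettl7a1 was past the adjusted p of 0.05 in 2 regions. The 8 points come from the same libraries as those of Synm and leave room for many such patterns among 7923 genes, so the order is a description.

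The other 7 filament genes did not respond in this way. With edgeR's quasi-likelihood test, 0 of the 51 tests that passed the filter on low counts were past an adjusted p of 0.05, while 3.7% of genes in dDG to 6.18% in CER were called (6.14% in PFC, 5.62% in AMY, 5.63% in PVN, 4.68% in dCA1, 5.45% in vCA1 and 3.93% in vDG). Of the 56 combinations of gene and region, 5 were not tested, all of them Lmna. In 4 of the 51 tests the unadjusted p was under 0.05, and DESeq2 also called 0. The median estimate over the 51 tests was 0.03, beside regional medians over all genes from -0.02 to 0.00. No 95% interval of these genes reached the Synm estimate of the same region.

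**Figure D3:**
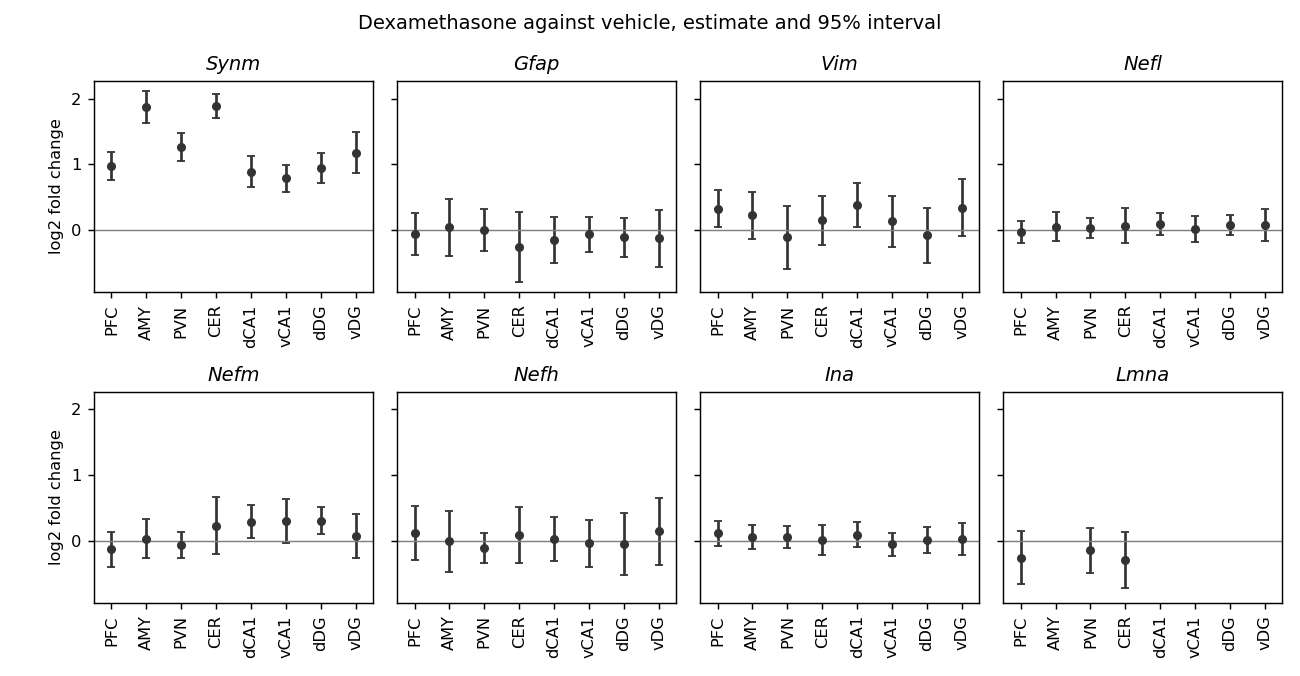
Log2 fold change of dexamethasone against vehicle (vertical axis) with 95% intervals for the 8 filament genes in each region, one panel per gene. The Synm estimates run from 0.79 to 1.89, while those of the other 7 genes lie between -0.29 and 0.38 where tested; Lmna has no point in the 5 regions where its counts were too low.

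Gfap, the intermediate filament protein by which astrocytes are usually recognised, had estimates from -0.26 ± 0.27 (SE) in CER to 0.04 ± 0.22 in AMY. Its adjusted p was 0.83 or more in every region. In dCA1, Gfap ran from 124.4 through 157.5 to 627.1 CPM in vehicle animals and from 94.8 through 166.5 to 237.7 CPM after dexamethasone. The highest value belongs to vehicle replicate 4, a library with a total of 297943 counts and an RNA integrity number of 4.2, and without this library, which the authors' transformed tables do not list, the estimate was 0.04 (adjusted p 0.94). In vDG the arms overlapped over nearly their whole ranges, 85.6 to 392.4 CPM and 94.0 to 335.4 CPM. Of 72 tests of the 9 astrocyte markers, 9 were past the threshold in the lower direction (1.29% to 2.28% of all genes were called lower per region) and 1 in the higher. Sox9, a transcription factor of astrocytes, made up 8 of the 9 lower calls, 1 in each region, with estimates from -1.20 in PFC to -0.67 in PVN. The others were Aqp4 (lower) and Aldh1l1 (higher), both in dCA1.

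Vim, found in astrocytes, vessel cells and ependyma, had its largest estimates in dCA1 (0.38 ± 0.17, adjusted p 0.28), vDG (0.34 ± 0.21, adjusted p 0.66) and PFC (0.32 ± 0.14, adjusted p 0.21), with edgeR. In dCA1 it ran from 13.5 through 29.9 to 44.8 CPM in vehicle animals and from 17.4 through 40.4 to 74.2 CPM after dexamethasone. In PFC it ran from 15.3 through 26.4 to 36.5 CPM and from 14.4 through 32.1 to 46.3 CPM. The arms overlapped in both, with 3 of 13 and 5 of 14 dexamethasone libraries above the highest vehicle library.

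Among the neuronal subunits, Nefl, the light chain that other neurofilament subunits need for assembly, had estimates from -0.03 to 0.09, with no interval reaching beyond 0.33 in either direction. Ina, which assembles with neurofilaments in the central nervous system, lay between -0.06 and 0.11, and the interval bound farthest from 0 was 0.29 (in PFC). Nefh, the heavy chain of large axons, lay between -0.11 and 0.14. Nefm, the medium chain, was the gene nearest to a call: in dDG it ran from 75.6 through 103.4 to 143.4 CPM in vehicle animals and from 98.3 through 130.3 to 166.4 CPM after dexamethasone. That difference was 0.30 ± 0.10 (SE, adjusted p 0.095 with edgeR), with 6 of 15 dexamethasone libraries above the highest vehicle library.

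In dCA1, Nefm differed by 0.29 ± 0.12 (adjusted p 0.25 with edgeR), and with the level of dentate genes as a covariate by 0.44 with an adjusted p of 0.0078, the only call of the 7 genes at that threshold under any alternative of these fits. The median level of the dentate genes in dCA1 was 540.1 CPM in vehicle animals and 342.5 CPM after dexamethasone. Nefl and Nefm lie next to each other on chromosome 14 (chr14:68083863-68089095, plus strand, and chr14:68082590-68124846, minus strand) and share 1108 exonic bases on opposite strands, 32.8% of Nefl and 19.2% of Nefm. Ina (chr19:47014698-47025327, plus strand) shares 456 exonic bases, 14.1%, with Nt5c2, and Synm 84 bases, 1.06%, with Ttc23. The strand setting of the counting is not given in the sources used here, so reads in these stretches may have been assigned to the neighbour or left out. Nefh lies at chr11:4938754-4948064 (minus strand), Vim at chr2:13573927-13582826 (plus) and Lmna at chr3:88480147-88509956 (minus), without such an overlap.

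A joint test of all 235 libraries asked whether a response differed among the 8 regions. It called 1.17% of 11053 genes and 0 of the 7 filament genes, each with an adjusted p of 1.00 in edgeR's quasi-likelihood test and unadjusted p-values from 0.41 (Nefm) to 0.99 (Nefl, Nefh and Gfap). DESeq2 called 0 as well, and 0 of the 7 had an unadjusted p under 0.05. The estimates of Nefm were above 0.20 in CER, dCA1, vCA1 and dDG and negative in PFC (-0.13) and PVN (-0.06).

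Lmna encodes lamins A and C of the nuclear envelope, and it had the fewest counts of the set. Its 2210 counts over all libraries compare with 20486 for Synm and 131515 for Nefl, and 3 libraries had none (a count of 0 there allows up to 6.75, 7.19 and 13.0 CPM, taking 3 counts as the floor). It passed the filter in PFC, PVN and CER, with estimates of -0.26, -0.15 and -0.29 and adjusted p-values of 0.64 or more. Without the filter the estimate was negative in all 8 regions, down to -0.53 ± 0.19 in dDG (adjusted p 0.16) and -0.61 ± 0.21 in vDG (adjusted p 0.14). In vDG, Lmna ran from 8.94 through 15.1 to 33.4 CPM in vehicle animals and from 3.09 through 10.6 to 18.6 CPM after dexamethasone, with wide overlap. It was lower after dexamethasone in 24 of 32 combinations of region and plate. The same held in 28 of the 32 combinations of region and punching date with at least 2 libraries of each arm.

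To use all counts of a mouse at once, the 8 libraries of each of the 26 mice with all regions were summed (13 per arm), an analysis added after the data were seen. Lmna was then lower after dexamethasone, at 11.4 ± 1.97 CPM against 14.0 ± 2.01 CPM in vehicle mice (SD, n = 13 each), a log2 difference of -0.30 ± 0.09 (SE, adjusted p 0.012 with edgeR). It ranged from 10.0 through 13.7 to 18.6 CPM in vehicle mice and from 6.83 through 11.3 to 15.3 CPM after dexamethasone, so the arms overlapped and 1 treated mouse lay below the lowest vehicle mouse. This fit has more power, and 18.6% of its 13375 genes were called, 8.82% in the lower direction. Lmna was called in 26 of 26 fits that left out 1 mouse and in 6 of 7 alternative fits. The exception had the replicate number as a block, which kept 22 of the 26 mice, and gave an adjusted p of 0.061 with edgeR.

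In the same sums Synm was 67.8 ± 4.24 CPM (SD, n = 13) in vehicle mice and 168.3 ± 16.8 CPM (SD, n = 13) after dexamethasone, a difference of 1.31 ± 0.05. Vehicle mice lay between 58.1 and 73.3 CPM and treated mice between 137.8 and 196.8 CPM, without overlap, a separation in the higher direction that 2.07% of the genes in these sums showed. Vim was 25.3 ± 4.52 CPM and 29.3 ± 4.59 CPM (SD, n = 13 each), a difference of 0.22 ± 0.08 with an adjusted p of 0.071, which did not pass with all 26 mice and passed in 3 of 26 fits that left out 1 mouse. With the replicate number as a block, which kept 22 of the 26 mice, Vim was past the threshold (0.26, adjusted p 0.0052 with edgeR). This was 1 of 7 alternative fits, and Vim was not past it in the others. The other 5 genes had estimates from -0.02 (Gfap) to 0.14 (Nefm) and adjusted p-values of 0.30 or more. The intervals of Nefl (-0.04 to 0.14), Ina (-0.09 to 0.09) and Gfap (-0.16 to 0.13) bound these differences most closely.

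**Figure D4:**
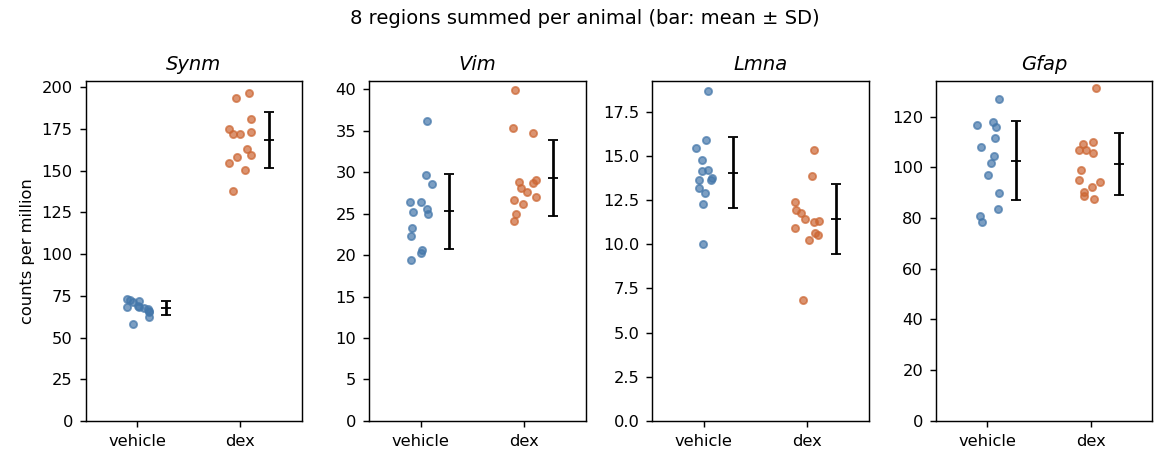
CPM of Synm, Vim, Lmna and Gfap after summing the 8 regions of each mouse (13 vehicle and 13 dexamethasone mice, points), with mean and SD as bars on axes that start at 0. Synm separates the arms (58.1 to 73.3 against 137.8 to 196.8 CPM), Lmna is lower on average after dexamethasone with overlap, and Gfap and Vim overlap.

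The regional order of the filament genes in vehicle animals was compared next, in 1 fit with the animal as a block over 28 region pairs. The 7 genes were past an adjusted p of 0.05 in 94 of 196 tests (48.0%), beside 31.4% of the tests of all genes. The glial gene Gfap was higher in the 4 hippocampal punches than in the other regions, Vim was highest in dDG, vDG and dCA1, and the neuronal genes Nefl, Nefm, Nefh and Ina were highest in CER.

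Gfap was 197.4 ± 123.9 CPM in dCA1, 184.6 ± 100.3 in vDG, 157.5 ± 44.5 in dDG and 127.0 ± 32.4 CPM in vCA1 (SD, n = 14 or 15). It was 65.7 ± 29.8 CPM in AMY, 59.5 ± 24.2 in PFC, 53.6 ± 35.4 in CER and 43.4 ± 11.4 CPM in PVN. Each of the 16 pairs of a hippocampal and another region was past the threshold, where 16.6% to 52.5% of all genes were called per pair. Only the step from vCA1 to AMY (edgeR adjusted p 0.00014) divided neighbours in the order. The summed level of the 9 astrocyte markers differed much less, with medians from 7732 to 10734 CPM over regions and arms. Within each of the 4 plates Gfap was higher in the hippocampal regions, by 1.48 to 1.67 on the log2 scale.

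Vim was 41.4 ± 18.4 CPM in dDG, 37.0 ± 17.5 in vDG and 30.8 ± 9.35 CPM in dCA1 (SD, n = 15 each), and 14.5 ± 4.69 CPM in AMY, the lowest region. PFC (26.4 CPM) lay between dCA1 and vCA1 (25.2 CPM) in its order. The summed markers of fibroblasts and meninges were also highest in vDG (vehicle median 298.6 CPM) and dDG (268.2 CPM), against 68.1 to 182.6 CPM elsewhere, and those of choroid plexus in dDG (1303 CPM, against 26.4 to 148.4 CPM). Over the 235 centred libraries Vim had an r of 0.45 with the markers of fibroblasts and meninges and 0.15 with those of astrocytes, and their part in the order of Vim was not tested. Vim was past the threshold in 14 of the 16 pairs of a hippocampal and another region, where 16.6% to 52.5% of all genes were called per pair. The 2 others were dCA1 and vCA1 against PFC. The r between Gfap and Vim over all 235 centred libraries was 0.22, and within single regions it ran from -0.21 in AMY to 0.56 in vDG.

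The neurofilament subunits were highest in CER by margins that grew with subunit size. Nefl was 1463 ± 386.6 CPM in CER and 607.9 to 725.6 CPM elsewhere, and the step to dCA1, the next region, was past the threshold (edgeR adjusted p 2.7e-16). Nefm was 368.4 ± 160.3 CPM in CER, against 129.1 ± 46.1 CPM in vDG, the next (adjusted p 1.8e-15). Nefh was 264.2 ± 136.3 CPM in CER, against 65.0 ± 14.2 CPM in PVN (adjusted p 2.8e-16). On the log2 scale of library means these steps were 0.97, 1.40 and 1.82. CER also had the highest oligodendrocyte marker sum (above), and over the 235 centred libraries Nefh had an r of 0.45 with that sum and 0.04 with the neuronal markers, against 0.14 and 0.27 for Nefl. The median neuronal marker sum of vehicle animals was 6368 CPM in CER, within the 5652 to 7605 CPM of all regions. The part of these cell types in the regional levels was not tested.

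Ina was 471.0 ± 122.9 CPM in CER and 311.5 ± 49.8 CPM in PVN, the next (adjusted p 1.3e-06 with edgeR). Each of the 4 genes was past the threshold in 7 of 7 pairs with CER, where 24.6% (PVN) to 52.5% (dCA1) of all genes were called per pair. Each was also highest in CER in each of the 4 plates. Below CER, Nefl differed between regions in 1 of 21 pairs and Nefh in 12 of 21, where 1.89% to 47.4% of all genes were called per pair. Nefh was 22.4 ± 8.29 CPM in dCA1 and 22.5 ± 9.01 CPM in PFC, the lowest regions. The CER libraries also varied widely, with Nefm from 86.8 through 431.8 to 554.4 CPM among the 15 vehicle mice.

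**Figure D5:**
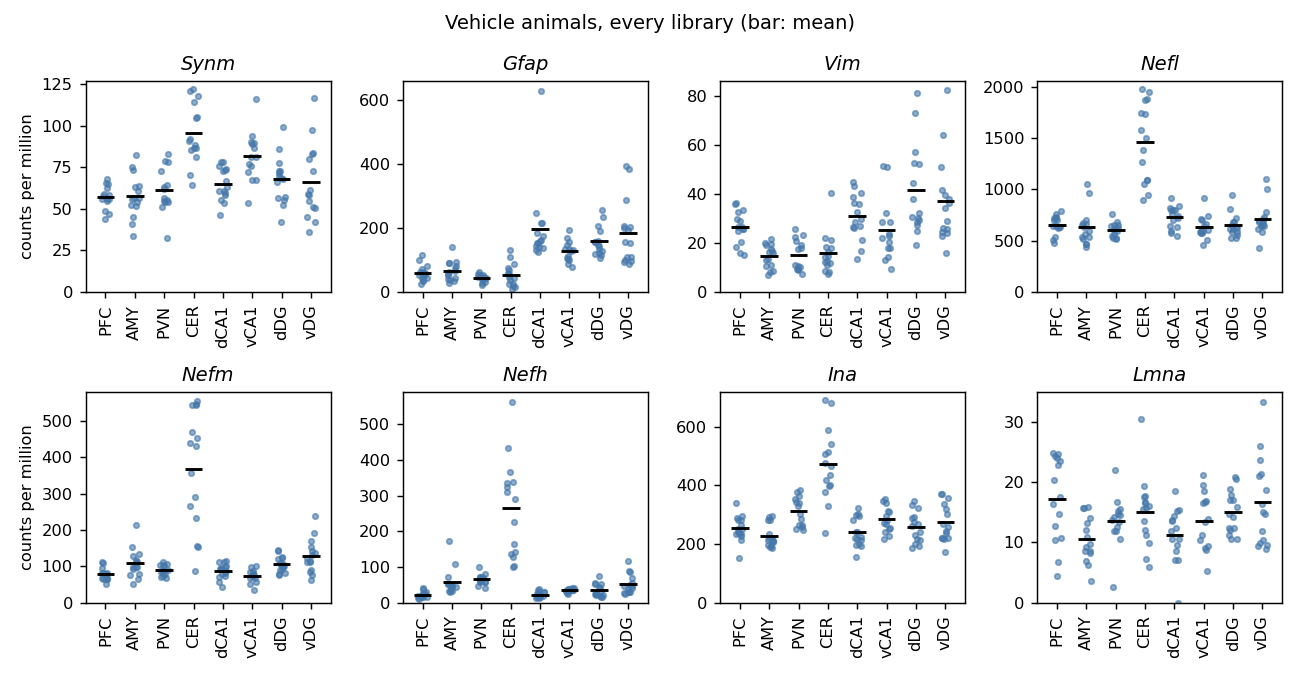
CPM of the 8 filament genes in every vehicle library by region, with a bar at the mean and each axis starting at 0. Gfap is higher in the 4 hippocampal punches and Vim in dDG, vDG and dCA1 (in vCA1 it lies below PFC), Nefl, Nefm, Nefh and Ina are highest in CER, and Synm and Lmna vary least between regions; the Gfap point at 627.1 CPM in dCA1 is vehicle replicate 4.

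The neuronal subunits were correlated between libraries of a group, to a degree that varied with the region. Over the 235 centred libraries r was 0.75 between Nefl and Nefm, 0.64 between Nefm and Nefh, 0.54 between Nefl and Nefh, and 0.42 to 0.52 between Ina and the 3 others. In CER alone it reached 0.90 for Nefl with Nefm and 0.91 for Nefm with Nefh over 30 libraries. In PVN the r of the pairs among these 4 genes ran only from -0.15 to 0.41 (29 libraries), and the lowest was 0.07 in dCA1 and 0.04 in vCA1. In CER Nefm had an r of -0.01 with RNA integrity and -0.28 with log2 total counts. Over the other regions these ran from -0.32 in PFC to 0.41 in dCA1 and from -0.34 in PFC to 0.35 in dCA1. The part of the shared bases of Nefl and Nefm in their r was not tested. Synm had r of 0.20 with Gfap, 0.04 with Vim and 0.31 with Nefh.

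Lmna varied little between regions, from 10.6 ± 3.80 CPM in AMY to 17.2 ± 7.00 CPM in PFC (SD, n = 15 each). It was past the threshold in 5 of 28 pairs, PFC against AMY and dCA1, AMY against dDG and vDG, and dCA1 against vDG. Of the tests of all genes 31.4% were past it, and fewer pairs of Lmna were with limma-voom (below). No pair of neighbours in its order was past it (adjusted p 0.21 or more with edgeR).

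Of 26 other intermediate filament genes (nestin, desmin, peripherin, syncoilin, the B lamins, lens filaments, the filament-family proteins Iffo1 and Iffo2 and 16 keratins), 8 could be tested in any region and the others had too few counts. In 52 tests, 2 were past the threshold in the higher direction and 0 in the lower (3.85%, within the 3.7% to 6.18% of all genes called per region), both of them Iffo2. Iffo2 was higher by 0.55 ± 0.13 in vCA1 (adjusted p 0.0061) and by 0.41 ± 0.12 in dDG (adjusted p 0.049), and its estimate was -0.38 ± 0.12 in PVN (adjusted p 0.062), with edgeR. The call in dDG was lost in 7 of 12 alternative fits and that in vCA1 in 0 of 13. Under some alternatives a test of this list was past the threshold in the lower direction (below). Median estimates of the list ran from -0.07 to 0.08 over the regions, beside -0.02 to 0.00 for all genes.

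Linkers tie filaments to junctions, the cell border and other parts of the cytoskeleton. Of 17 listed linkers and partners, 13 could be tested, and of 98 tests 1 was past the threshold in the higher direction and 4 in the lower (5.10%, within the 3.7% to 6.18% of all genes called per region). Vcl, which encodes vinculin, a partner of synemin at adhesion sites, fell by 0.50 ± 0.13 in PFC (adjusted p 0.014) and by 0.42 ± 0.12 in PVN (adjusted p 0.021). The other calls were single: Macf1 and Tln1 in the lower direction, and Dsp, also a dentate granule cell gene, in the higher direction in vCA1, where the median level of the dentate genes was 163.9 CPM after dexamethasone and 88.5 CPM after vehicle. The list's regional medians lay between -0.14 and 0.02.

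Of 18 partners of the nuclear lamina, 16 could be tested, and 4 of 128 tests were past the threshold, all in the higher direction (3.13%, where 2.33% to 3.9% of all genes were called higher per region), a share near that of all genes. Sun2, which spans the inner nuclear membrane and links lamins to the cytoskeleton, was higher by 0.51 ± 0.14 in PVN (adjusted p 0.011), 0.42 ± 0.13 in CER (adjusted p 0.031) and 0.58 ± 0.15 in dCA1 (adjusted p 0.014). Its estimate was positive in the other 5 regions too, from 0.26 to 0.57. The fourth call was Syne1, which encodes a nesprin. The list's regional medians lay between -0.08 and 0.07.

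Markers of other cells moved with the treatment. Endothelial markers were lower in 24 of 40 tests and microglial markers in 16 of 42, with none higher, beside 1.29% to 2.28% of all genes called lower per region. All of these calls came from Flt1, Slco1a4 and Kdr among the 5 endothelial genes tested and from Cx3cr1 and P2ry12 among the 6 microglial genes tested, each called in 8 of 8 regions. Of 64 tests of 8 neuronal markers and 27 of 4 mural cell markers, 0 were past the threshold. The part of these shifts in the values of Vim and Lmna, which endothelial cells also express, was not tested.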

How the data were processed

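Punched tissue from 8 brain regions of 30 mice was sequenced as QuantSeq 3′ libraries with molecular identifiers, and reads were trimmed, aligned to mm10 and deduplicated with cutadapt, STAR 2.6.0a and UMI-tools 0.5.4 and counted with featureCounts 1.6.4, per the submitters' processing notes. Counts per gene (27998 genes, 235 libraries) are as the authors deposited them. The authors also deposited variance-stabilised log2 values, made with DESeq2 1.30.1 per the submitters' processing notes; these were used only to see which 228 libraries they list. Of the symbols, 27645 were matched through GENCODE M21, and 99.9% of matched genes overlapped its coordinates. Rows without a symbol made up 1.26% of the 27998 rows and were tested under their identifiers.

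Groups came from the labels' region and treatment. Dexamethasone was compared with vehicle in each region with edgeR 4.0.16 (quasi-likelihood test, TMM scaling, filterByExpr), with Benjamini-Hochberg adjustment over all genes tested in the region and a threshold of 0.05. A joint interaction test used all libraries, and 28 region pairs were compared in vehicle animals with the animal as a block. Simulated counts were used to check the dexamethasone fit in AMY, the interaction test and the vehicle region pairs, read for PFC against CER. The sums per animal, the correlations and the alternatives were not checked in this way. CPM are TMM-scaled, and log2 CPM for correlations used a prior count of 2. Standard errors were derived from the estimate and its F statistic. P-values and intervals rest on the same fitted dispersion and F statistic, and a low count such as that of Lmna widens the intervals. Each regional fit held 1 library per mouse, while the joint test held several per mouse without an animal term. No 2 libraries of the same region and arm were alike within sampling noise (lowest chi-square per degree of freedom 1.34 over 1611 pairs). Alternatives were DESeq2 1.42.0, other scalings and filters (none, or at least 10 counts in every library), blocks, batches, RNA integrity, cell-type covariates, limma 3.58.1 and left-out libraries.

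The members and gene lists were chosen with earlier results of these data known. The text names the 8 members, list genes past the threshold in at least 2 regions (at most 4 per list), and the 5 genes most like Synm by each of 2 measures, of which some are not reported here; genes named for a single call or as markers were added after their values were seen.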

Additional observations from a re-analysis of the deposited data

Results flagged for a closer look

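The response of Iffo2, an intermediate filament family gene outside the 8 described, differed among the 8 regions in the joint edgeR test (adjusted p 0.000816). Its estimates ran from -0.38 in PVN to 0.55 in vCA1, and the adjusted p lay between 0.000297 and 0.00205 in the 6 alternative fits in which the gene could be tested. In vehicle animals its mean was 39.9 CPM in PVN and 35.7 CPM in vCA1. The median level of 5 dentate granule cell genes in vCA1 was 88.5 CPM after vehicle and 163.9 CPM after dexamethasone, and with that level as a covariate Iffo2 was still past the threshold in vCA1.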

How the results depend on the processing

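Among the region-wise comparisons of the 7 genes other than Synm, the count of tests past the threshold was 0 in the higher direction under 12 of 14 alternatives and 0 in the lower direction under 14 of 14. The exceptions were 1 higher test with the level of dentate genes as a covariate (Nefm in dCA1) and 1 at a threshold of 0.1 (Nefm in dDG). Of 622 single values of these genes, 33 changed sign, all of them with an estimate of at most 0.16 in size. The Synm estimates lay between 1.85 and 1.90 in CER, 1.86 and 1.92 in AMY, 1.21 and 1.31 in PVN, 1.14 and 1.24 in vDG, 0.93 and 1.01 in PFC, 0.92 and 1.00 in dDG, 0.74 and 0.91 in dCA1 and 0.78 and 0.86 in vCA1. The count for a response that differed among regions was 0 in 7 of 7 alternatives, though the one that required at least 10 counts in every library could test only 3 of the 7 genes. In vehicle animals 94 of the 196 tests of a gene in a region pair were past the threshold, 91 to 96 in 6 alternatives and 36 when genes needed at least 10 counts in every library, which left only Nefl, Nefm and Ina to be tested. None of these called tests changed direction. Lmna had 2 called pairs with limma-voom in place of 5. Of the other filament genes listed, 1 test (and no longer 0) was past the threshold in the lower direction under 6 alternatives.

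In the sums per animal the count of called genes was 1, and 2 at a threshold of 0.1 (Lmna and Vim). The Lmna estimate ran from -0.31 to -0.21 over 7 alternatives (adjusted p 0.0065 to 0.061) and from -0.34 to -0.26 over the 26 fits without 1 mouse (adjusted p 0.0029 to 0.028). For Vim the adjusted p ran from 0.0052 to 0.25 and from 0.011 to 0.14. These sums, the oligodendrocyte covariate and the fits without the 6 libraries of an RNA integrity number below 4 were chosen after seeing the data.

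Vehicle and dexamethasone mice carry the same replicate numbers but are different animals. Of 115 same-numbered pairs, all shared a plate and 109 a punching date, the deviations of 73 correlated with r over 0.1 (lowest -0.16), and 32 correlated best with their own number. Their median r was 0.05 to 0.21 per region, against about 0 for all cross pairs. Same-numbered mice thus shared batches, but not every pair had r over 0.1. The comparisons of dexamethasone with vehicle above are therefore without the block, and they are not adjusted for plate or date. With the replicate block the regional counts were 0 higher and 0 lower, and 0 genes differed among regions. In the sums, the block left 11 pairs and called 1 gene, Vim (0.26, adjusted p 0.0052), and not Lmna (-0.21, adjusted p 0.061), and the cause was not tested.

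Depth limits Lmna most, which was tested in 3 regions only. The intervals rest on 13 to 15 mice per arm and on libraries of unequal RNA integrity.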
